A study of Mus musculus with 4 samples.

Results

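Adm, Ndrg1, Bnip3, Ankrd37, Egln3, Ddit4, Higd1a, Ak4, Bhlhe40 and Slc2a1 are genes of the transcriptional response to low oxygen. They were chosen by name, with earlier results of these data known. All 10 were present in each of the 4 count matrices, among 23635 gene symbols in all. The matrices come from transplanted mouse tumours of Py8119, a triple-negative mammary carcinoma line derived from an MMTV-PyMT mouse. There were 2 libraries of Sema4d-shRNA tumours, in which a short hairpin RNA was used to knock down Sema4d, and 2 libraries of NC tumours, whose genotype is labelled control. The submitters' title speaks of Sema4d of the tumour cells themselves, and the host cells around them carried no labelled change. Single cells were encapsulated in droplets, and each cell's transcripts were counted by unique molecular identifiers (UMIs). Neither the hairpin sequence, the age and sex of the mice nor how many animals gave a library is stated in the labels, so p-values here measure only the spread between these libraries.

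When oxygen is scarce, prolyl hydroxylases no longer mark the HIF alpha proteins for destruction by the VHL ubiquitin ligase. HIF then pairs with ARNT and binds a short core motif near its target genes. The targets shift cells to glycolysis, trim or remodel mitochondria, signal to vessels and restrain growth. In tumours the response is known from poorly perfused regions, in cancer cells and in macrophages, and several of the same genes also answer to amino acid stress, hormones or cell activation.

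The HIF core motif was looked for as ACGTG or GCGTG on both strands in RefSeq promoters of GRCm38.p6, from 250 bases before to 50 after a gene's start. The table held 8 of the 10 members, that is all but Ndrg1 (chr15:66929318-66969640 on the minus strand, GENCODE M21) and Bhlhe40 (chr6:108660629-108666925 on the plus strand). The motif was present in 8 of these 8 and in 43.8% of all 32851 promoters. At least 2 separate matches stood in 7 of the 8, against 17.3% of all promoters. The ACGTG form was present in 6 of the 8, against 19.6% of all. The promoters are shown because they carry the motif by which these genes are usually grouped. They run 5′ to 3′ on the gene's strand, with matches in capitals, and overlapping matches merge (CACGTG holds the motif on both strands). For Ak4, the one of 4 listed starts with the most matches was taken, while the shares of all promoters count every listed start. The members were chosen by name as hypoxia response genes, so these counts describe them and are no test of enrichment.
Slc2a1 (chr4:119108495-119108794, plus strand): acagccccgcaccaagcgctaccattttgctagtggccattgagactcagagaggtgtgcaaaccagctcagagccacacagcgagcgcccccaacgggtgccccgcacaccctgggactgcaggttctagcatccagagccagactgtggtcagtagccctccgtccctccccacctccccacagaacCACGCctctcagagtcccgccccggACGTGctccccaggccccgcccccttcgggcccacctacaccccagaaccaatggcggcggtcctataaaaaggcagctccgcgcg
Ak4 (chr4:101419039-101419338, plus strand): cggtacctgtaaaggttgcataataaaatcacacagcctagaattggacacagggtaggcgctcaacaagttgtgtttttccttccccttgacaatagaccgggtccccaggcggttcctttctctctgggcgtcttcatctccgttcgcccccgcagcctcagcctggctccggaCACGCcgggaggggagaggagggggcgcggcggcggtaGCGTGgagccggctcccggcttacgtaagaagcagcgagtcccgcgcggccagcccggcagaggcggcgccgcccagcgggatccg
Bnip3 (chr7:138909457-138909756, minus strand): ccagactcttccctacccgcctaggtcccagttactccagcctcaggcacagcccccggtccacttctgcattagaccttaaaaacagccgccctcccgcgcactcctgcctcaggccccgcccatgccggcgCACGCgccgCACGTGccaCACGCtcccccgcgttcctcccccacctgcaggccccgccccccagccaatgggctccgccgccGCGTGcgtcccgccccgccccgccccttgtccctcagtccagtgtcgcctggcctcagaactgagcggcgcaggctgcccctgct
Higd1a (chr9:121857747-121858046, minus strand): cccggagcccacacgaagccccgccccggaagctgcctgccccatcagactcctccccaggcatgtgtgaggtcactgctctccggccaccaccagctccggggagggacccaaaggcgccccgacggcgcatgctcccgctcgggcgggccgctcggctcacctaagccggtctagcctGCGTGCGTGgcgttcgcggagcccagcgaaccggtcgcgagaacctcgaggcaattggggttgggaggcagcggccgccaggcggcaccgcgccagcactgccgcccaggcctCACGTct
Adm (chr7:110627407-110627706, plus strand): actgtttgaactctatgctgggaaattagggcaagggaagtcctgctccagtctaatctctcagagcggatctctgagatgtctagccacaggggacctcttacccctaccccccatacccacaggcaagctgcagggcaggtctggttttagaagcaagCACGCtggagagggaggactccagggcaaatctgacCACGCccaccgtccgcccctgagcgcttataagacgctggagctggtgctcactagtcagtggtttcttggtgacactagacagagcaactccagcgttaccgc
Egln3 (chr12:54203825-54204124, minus strand): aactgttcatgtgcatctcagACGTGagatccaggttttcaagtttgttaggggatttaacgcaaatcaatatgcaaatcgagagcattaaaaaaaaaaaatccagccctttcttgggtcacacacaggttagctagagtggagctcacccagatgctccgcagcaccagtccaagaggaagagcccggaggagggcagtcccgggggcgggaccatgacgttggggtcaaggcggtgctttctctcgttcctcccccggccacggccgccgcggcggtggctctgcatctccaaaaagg
Ankrd37 (chr8:45999801-46000100, minus strand): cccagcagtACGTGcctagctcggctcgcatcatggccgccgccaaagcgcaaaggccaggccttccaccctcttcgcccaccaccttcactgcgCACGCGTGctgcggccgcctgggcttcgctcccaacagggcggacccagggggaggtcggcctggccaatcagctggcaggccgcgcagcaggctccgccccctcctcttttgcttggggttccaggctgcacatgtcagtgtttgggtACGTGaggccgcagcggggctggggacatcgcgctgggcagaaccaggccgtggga
Ddit4 (chr10:59951721-59952020, minus strand): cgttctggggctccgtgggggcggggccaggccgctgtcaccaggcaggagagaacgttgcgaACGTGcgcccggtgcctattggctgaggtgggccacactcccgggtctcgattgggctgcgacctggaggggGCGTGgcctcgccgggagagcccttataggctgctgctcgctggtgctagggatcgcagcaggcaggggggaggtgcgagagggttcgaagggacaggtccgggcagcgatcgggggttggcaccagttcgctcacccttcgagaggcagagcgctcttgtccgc
Bnip3 had 4 matches, 1 of them the palindrome CACGTG, and Ankrd37 had 3. Adm and Ak4 had only the GCGTG form, each with 2 matches, and Egln3 had 1 match. A match is a stretch of letters, and binding was not measured here.

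The libraries held 10575 and 13173 cells in Sema4d-shRNA tumours and 10874 and 10598 in NC tumours, with 83513906 to 119758159 UMIs each and median UMIs per cell of 5690 to 8180. Of 45220 cells, 42359 were used, and classes were rebuilt from clusters with the members kept out of the variable genes. They gave 25833 tumour-like cells, 10864 macrophage or monocyte-like cells and 2059 T and NK-like cells, besides small classes of dendritic, neutrophil, fibroblast, endothelial and host mammary cells. Unnamed cells were 2.27% and 3.59% in Sema4d-shRNA libraries and 13.2% and 6.54% in NC libraries. The largest unnamed cluster held 2017 cells, marked doublets included, with a median of 2779 UMIs. It was left unnamed because its top genes were mitochondrially encoded. The tumour-like class had 11 of 16 listed markers at 20 CPM (UMIs of the gene per 1000000 UMIs of the class) or more, among them Krt8 and Vim. Krt5, Krt7, Krt14 and Krt19 were near 0 there. Only 5 of the 16 were highest in their own class, so the class was named partly because it fitted no other. The largest unnamed cluster also had 11 of the 16 at 20 CPM or more. The effect of leaving its cells out of the tumour-like class was not tested. Sema4d gave 3.85 and 5.48 CPM in tumour-like cells of the shRNA libraries and 6.70 and 7.41 in NC libraries, lower in both shRNA libraries, but the difference did not pass the test (log2 change -0.54, SE 0.18, adjusted p = 0.288, edgeR; without the second Sema4d-shRNA library -0.83, adjusted p = 0.00981). In macrophage or monocyte-like cells, Sema4d was 63.4 and 79.9 CPM in shRNA libraries and 70.1 and 65.1 in NC libraries. T and NK-like cells had 157 and 168 CPM of Sema4d in shRNA libraries and 216 and 224 in NC libraries. Lower values in both shRNA libraries were thus seen in T and NK-like cells too, and this difference was not called either (log2 change -0.41, SE 0.14, adjusted p = 0.518, edgeR). Cells differed in a sign of RNA quality: the median mitochondrial share was 0.275% and 0.369% in shRNA libraries and 0.981% and 0.883% in NC libraries. The same 50 cell names occurred in all 4 libraries. Free RNA from other classes was estimated at 5.94% to 6.998% of the tumour-like and 6.12% to 7.43% of the macrophage or monocyte-like UMIs.

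Across cell types, most of the members were higher in a macrophage subset marked by Mmp12, Il1rn and Nos2 than in tumour-like cells. Mmp12 encodes a macrophage elastase. Endothelial cells were as high or higher for Adm and Ndrg1, and monocytes were higher for Egln3 and Bhlhe40. Levels are in CPM. They are compared between classes for 1 gene at a time and carry no test, since classes were drawn from the same cells. The myeloid class divided into the Mmp12 subset (387 and 335 cells in Sema4d-shRNA libraries, 314 and 293 in NC libraries), C1q macrophages (776 and 1200 in Sema4d-shRNA libraries, 1708 and 2547 in NC libraries), monocytes, cycling cells and an unnamed subset.

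**Figure D1:**
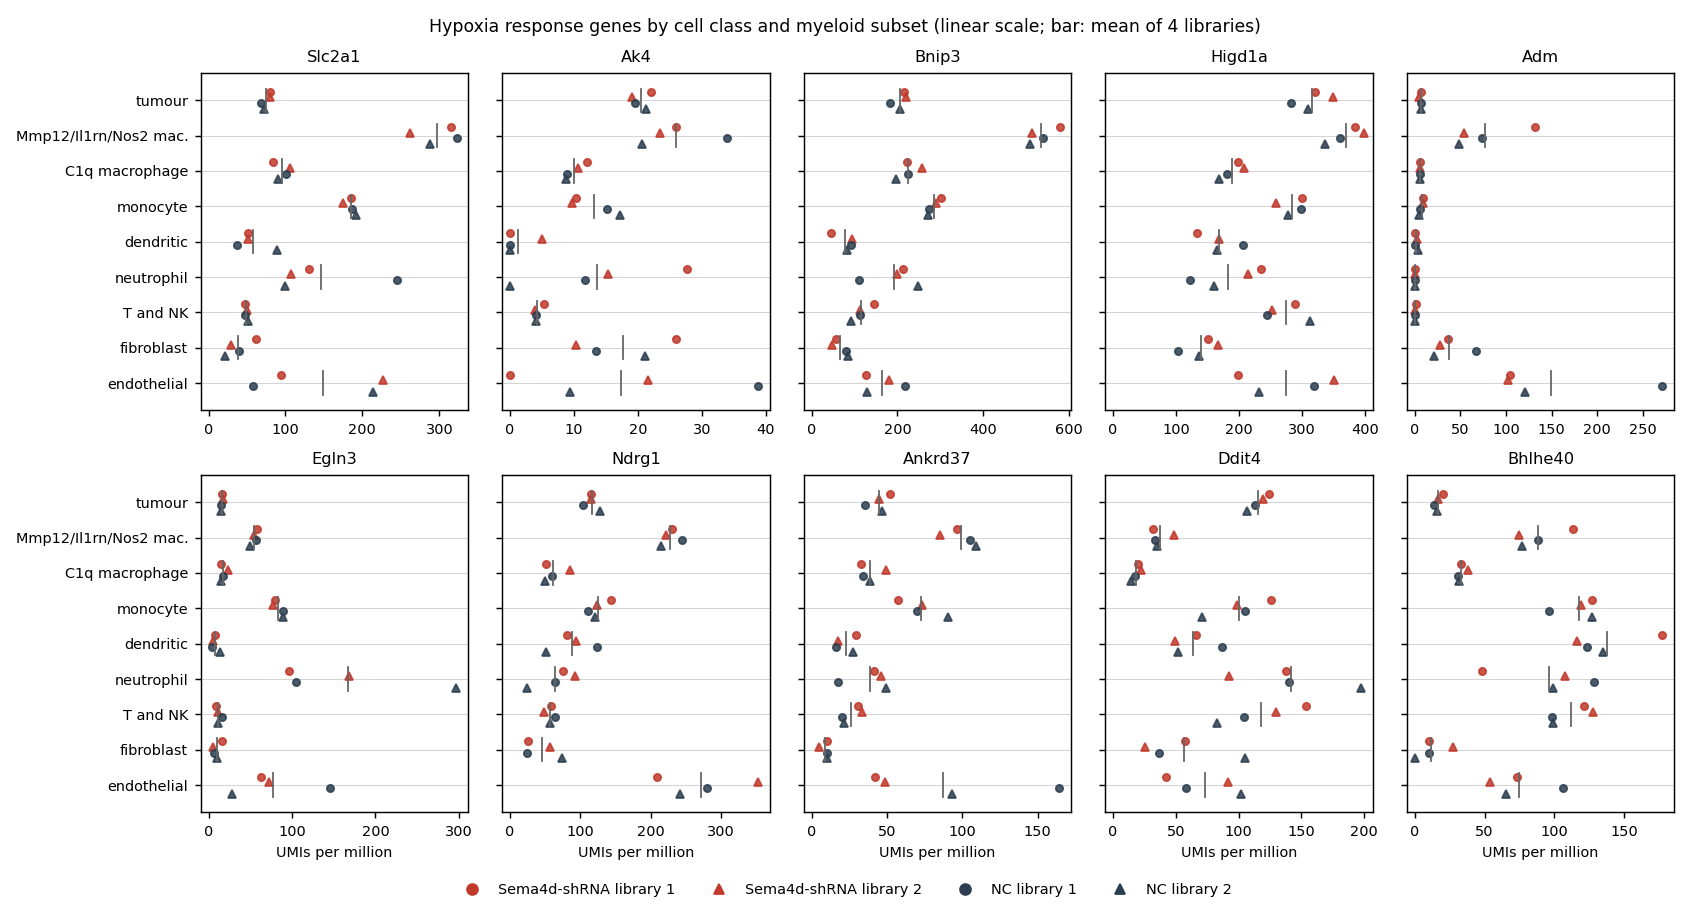
Levels of the 10 hypoxia response genes (CPM, linear axes that differ between genes) in 9 classes or subsets. Each point is 1 library and each bar the mean of 4. In the Mmp12 subset every library of Bnip3 is at 509.9 or more, above every other class shown.

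Among the metabolic members, Slc2a1 encodes the glucose transporter GLUT1. It had 316 and 262 CPM in the Mmp12 subset of Sema4d-shRNA libraries and 323 and 288 in that of NC libraries. Monocytes had 175 to 191, C1q macrophages 83.4 to 106 and tumour-like cells 68.7 to 80.5. The Mmp12 subset stood above monocytes in every library, and the C1q macrophages above the tumour cells by a narrow margin. Ak4, a mitochondrial adenylate kinase, was at 20.7 to 33.9 in the Mmp12 subset, 18.997 to 21.997 in tumour-like cells and 8.69 to 12.1 in C1q macrophages. The Mmp12 subset and the tumour-like cells overlapped for Ak4, while C1q macrophages lay below both.

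Bnip3 is a mitochondrial outer membrane protein that acts as a receptor in mitophagy. In the Mmp12 subset it had 579 and 514 CPM in Sema4d-shRNA libraries and 539 and 509.9 in NC libraries. Monocytes followed at 271 to 301, and C1q macrophages (197 to 257) and tumour-like cells (183 to 219) overlapped. Higd1a, an inner mitochondrial membrane protein tied to the respiratory chain, was spread more evenly, at 337 to 398 in the Mmp12 subset and 284 to 350 in tumour-like cells. These ranges overlapped, and C1q macrophages were lower, at 169 to 208.

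Adm encodes the precursor of the vasodilator adrenomedullin. The Mmp12 subset had 132 and 54.1 CPM in Sema4d-shRNA libraries and 74.1 and 48.3 in NC libraries, against 5.47 to 5.95 in C1q macrophages and 5.33 to 7.52 in tumour-like cells. The subset held 655 of the 924 Adm UMIs of all macrophage or monocyte-like cells. T and NK-like cells gave 5 Adm UMIs in all. Endothelial cells gave 105 and 103 CPM in Sema4d-shRNA libraries and 271 and 121 in NC libraries, from only 117 UMIs in 79 cells, and fibroblasts 21.1 to 66.8 from 45 UMIs. Endothelial cells and the Mmp12 subset overlapped.

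Egln3, the prolyl hydroxylase PHD3 that acts in feedback on HIF, showed another order. Monocytes had 77.3 to 89.3 CPM, the Mmp12 subset 50.2 to 58.4, C1q macrophages 14.3 to 23.3 and tumour-like cells 14.3 to 17.3. Neutrophils had 96.6 to 297, but their 131 cells gave 67 Egln3 UMIs and free RNA was estimated at 36.6% to 89.7% of their UMIs. The monocytes were above the Mmp12 subset in every library, and C1q macrophages and tumour-like cells overlapped.

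Ndrg1, a cytoplasmic protein linked to growth arrest and differentiation, had 231 and 222 CPM in the Mmp12 subset of Sema4d-shRNA libraries and 244 and 215 in that of NC libraries. Endothelial cells overlapped it at 209.9 to 354, and tumour-like cells (104 to 129) overlapped monocytes (111 to 143). Ankrd37, an ankyrin repeat protein, was at 85.3 to 109 in the Mmp12 subset, 57.2 to 90.3 in monocytes and 35.6 to 52.0 in tumour-like cells. The first pair of these ranges overlapped and tumour-like cells lay below both.

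Of the other 2 members, Ddit4 was lower in the Mmp12 subset than in tumour-like cells, and Bhlhe40 was highest in other classes. Ddit4 encodes REDD1, an inhibitor of mTORC1 that is induced by hypoxia and by other stresses. It had 107 to 125 CPM in tumour-like cells, 83.1 to 153 in T and NK-like cells and 71.0 to 126 in monocytes, which all overlapped, against 32.0 to 48.6 in the Mmp12 subset and 14.5 to 22.6 in C1q macrophages. Bhlhe40, a transcriptional repressor also induced by activation of lymphocytes, was highest in dendritic cells (116 to 177), monocytes (96.4 to 127) and T and NK-like cells (98.0 to 128). Tumour-like cells had 13.7 to 20.5. The order of cell types thus differed between members, and all but Egln3, Ddit4 and Bhlhe40 had a higher mean in the Mmp12 subset than in C1q macrophages, monocytes or tumour-like cells.

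Within tumour-like cells the members did not all mark the same cluster. Cluster 0, led by interferon-response genes such as Ifit3 and Rsad2, had 9 of 10 members above the level of the whole class. The largest ratios there were those of Adm (log2 ratio 1.03), Slc2a1 (0.86) and Bnip3 (0.67). Cluster 2, led by Car9, the HIF-induced carbonic anhydrase IX, had ratios of -0.07 to 0.34. Cluster 16, led by Slurp1 and Ly6c1, had high Ndrg1 (1.23) and Adm (1.06) and low Egln3 (-1.33). Cluster 6, with Postn and Mgp among its leading genes, had high Ddit4 (0.61), with Adm at -0.97 and Slc2a1 at -0.60. In every library Ndrg1 in cluster 16 lay between 242 and 295 CPM, above the 104 to 129 of the whole class.

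**Figure D2:**
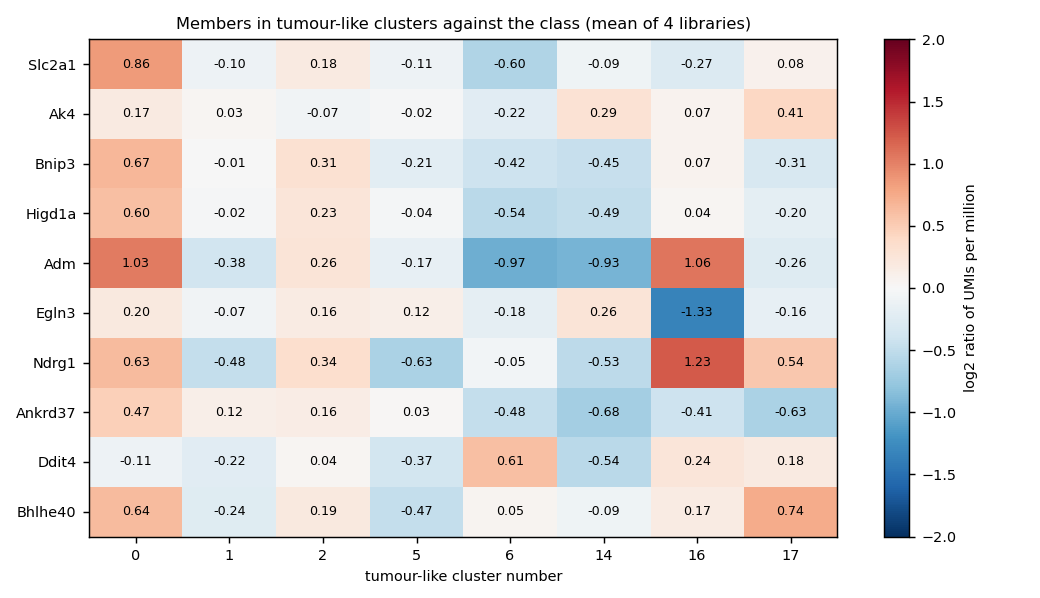
Log2 ratio of each gene's mean level over 4 libraries in 8 tumour-like clusters to its mean level in all tumour-like cells, with the values printed in the cells. Ndrg1 and Adm are high in cluster 16, where Egln3 is at -1.33, and cluster 0 is above the class for every gene but Ddit4.

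The members were found together in single cells more often than their separate frequencies give. Cells were thinned to 3000 UMIs, and for each of the 45 pairs the number of cells with both genes was divided by the number expected if the genes were independent within the library. In tumour-like cells the median ratio over pairs with at least 5 cells expected was 1.27 to 1.37 in the 4 libraries. For Adm and Slc2a1 the ratio was 2.52 and 2.25 in Sema4d-shRNA libraries and 2.58 and 2.01 in NC libraries. Adm and Ankrd37 followed with a median of 2.10, Adm and Ndrg1 with 1.80, and Adm and Bnip3 with 1.77. Ddit4 was nearly independent of Ak4 (median 1.03) and of Higd1a (1.05). The strongest pairs held Adm, which at this depth was detected in 1.46% to 1.79% of the cells. Within single tumour-like clusters the median ratio over the 4 libraries ran from 1.19 to 1.22 in cluster 0, from 1.26 to 1.41 in cluster 1, from 1.25 to 1.33 in cluster 2 and from 0.933 to 1.22 in cluster 16.

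Macrophage or monocyte-like cells gave a median ratio of 1.33 to 1.74 over their pairs. For Adm and Ndrg1 it was 2.84 and 2.23 in Sema4d-shRNA libraries and 3.14 and 3.54 in NC libraries. Adm and Slc2a1 had a median of 2.43, and Ndrg1 and Egln3 of 2.01. Inside the Mmp12 subset Adm and Ndrg1 had a median ratio of 1.67 and Adm and Slc2a1 of 1.52, and the median over pairs was 1.13 to 1.27 in the 4 libraries. Inside C1q macrophages it was 1.25 to 1.48, and Ndrg1 with Ankrd37 reached a median of 1.68. In T and NK-like cells, where 5 to 18 pairs could be read, it was 0.941 to 1.16. Lists given the same treatment had medians in tumour-like cells of 3.04 to 3.99 for genes of the G2 and M phases, which mark cycling cells, 1.22 to 1.28 for immediate early genes and 1.15 to 1.19 for the integrated stress response. These ratios describe cells of shared libraries and carry no test.

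**Figure D3:**
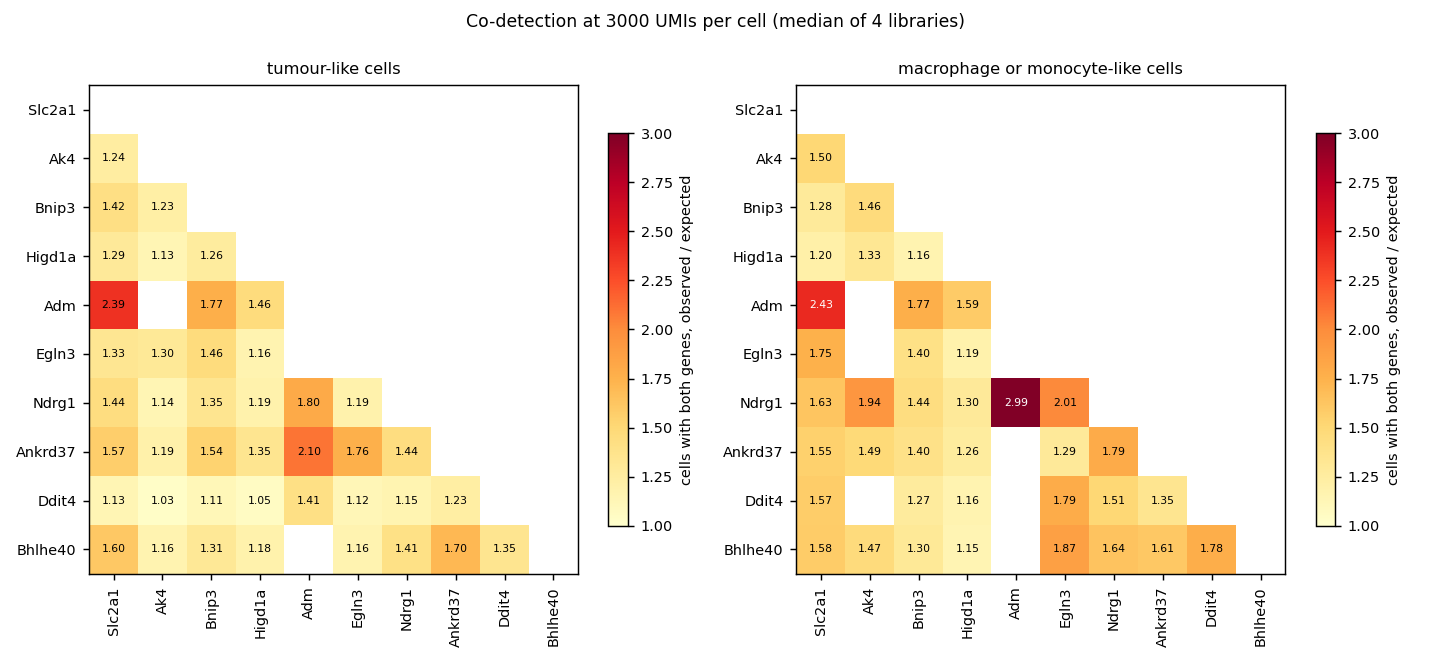
Observed over expected number of cells with both genes at 3000 UMIs per cell, median of 4 libraries, in tumour-like cells (left) and macrophage or monocyte-like cells (right). Pairs with fewer than 5 cells expected in any library are blank. Adm with Slc2a1 stands out on both sides (2.39 and 2.43), and Adm with Ndrg1 reaches 2.99 in macrophages.

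Across single tumour-like cells, the gene closest to the members' mean log value was Ero1l, an oxidoreductase of the endoplasmic reticulum induced by HIF, with a median Pearson's r of 0.54 over the 4 libraries among 9075 genes. The glycolytic enzymes Aldoa (0.49) and Gapdh (0.49) and the mitochondrial protein Fam162a (0.47) came next, followed by Mt1, Ldha, Pgam1, Gpi1, Tpi1 and Bsg. In macrophage or monocyte-like cells the closest of 6910 genes was Hilpda, a lipid droplet protein induced by hypoxia (0.51). Lgals3, Ero1l, Fth1, Basp1, Gapdh, Tpi1, Mmp12, Hmox1 and Id2 followed, and their r ran down to 0.36. Ero1l, Gapdh and Tpi1 were in both lists. Points within a library share its depth and free RNA, and r is a description.

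Among transcripts of the oxygen-sensing machinery, Hif1a had a mean of 47.3 CPM in tumour-like cells, 82.5 in C1q macrophages, 109 in the Mmp12 subset, 153 in monocytes and 157 in T and NK-like cells. Epas1, which encodes HIF2 alpha, was singled out after its values were seen: it had 167 to 756 in endothelial cells, 10.54 to 100.3 in fibroblasts and under 1 in tumour-like cells. Egln1, the main oxygen-sensing prolyl hydroxylase and itself a HIF target, had 107 to 123 in the Mmp12 subset and 63.8 to 77.7 in C1q macrophages. Hif1a protein is regulated mostly after transcription, and protein was not measured.

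Between Sema4d-shRNA and NC tumours, no member passed the test in tumour-like cells. Bhlhe40 had 20.5 and 16.5 CPM in Sema4d-shRNA libraries and 13.7 and 15.8 in NC libraries. Both shRNA libraries were above both NC libraries, and the fitted log2 change was 0.38 (SE 0.12, adjusted p = 0.261, edgeR). Slc2a1 had 79.8 and 80.5 in Sema4d-shRNA libraries and 68.7 and 71.7 in NC libraries, with a log2 change of 0.24 (SE 0.08, adjusted p = 0.244). Its groups did not overlap either. Higd1a had 321 and 350 in Sema4d-shRNA libraries and 284 and 309.7 in NC libraries, and Egln3 16.3 and 17.3 in Sema4d-shRNA libraries and 14.3 and 14.7 in NC libraries. For Adm (7.52 and 5.33 in Sema4d-shRNA libraries, 6.80 and 6.56 in NC libraries), Ak4 and Ndrg1 the groups overlapped, with log2 changes of -0.01, 0.06 and 0.05.

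In tumour-like cells, edgeR called 76 of 14481 genes, or 0.525%, at an adjusted p under 0.05 (0.0829% higher and 0.442% lower), and 0 of the 10 members, while DESeq2 also called 0 members. At an unadjusted p under 0.05 the members numbered 6, all higher, against 4.85% of all genes. Both shRNA libraries were above both NC libraries for 6 members, against 12.8% of all genes tested, and below them for 0 members, against 31.0%. The fitted log2 change was above 0 for 9 of 10, with a median of 0.22, where the median of all genes was 0.01. The number of genes called was 26 to 344 when 1 library was left out, the most without the second Sema4d-shRNA library and the fewest without the second NC library, and 0 members were called in each case. When each tumour cluster was given the same weight in every library, the median log2 ratio of the members' levels was 0.13, against 0.17 as counted. All 10 were above 0, but Adm (0.006) and Ak4 (0.011) only just. At these weights the groups did not overlap for Egln3, Ddit4, Bhlhe40 and Slc2a1, and overlapped for the rest. Higd1a had 325 and 338 CPM in Sema4d-shRNA libraries and 281 and 326 in NC libraries. The share of all genes without overlap was not computed at these weights. The Car9 cluster, cluster 2, was 22.6% and 22.02% of tumour-like cells in Sema4d-shRNA libraries and 5.96% and 13.4% in NC libraries. Cluster 16 was 1.33% and 1.15% in Sema4d-shRNA libraries and 7.54% and 6.24% in NC libraries. Cluster 6 was 19.7% and 12.7% in Sema4d-shRNA libraries and 28.4% and 30.4% in NC libraries. Cluster 0 was 8.02% and 12.5% in Sema4d-shRNA libraries and 16.9% and 8.41% in NC libraries, which overlap. Shares of the remaining clusters overlapped too, with cluster 17 at 9.04% in the first Sema4d-shRNA library and 0.949% in the second. By cluster, 0 members were called anywhere, and the median of the members' log2 changes was 0.30 in cluster 1 and -0.14 in cluster 0, where 1 of 10 was above 0. By edgeR, the share of all genes called was 1.27% in cluster 0, 0.388% in cluster 1, 0.602% in cluster 2, 0.256% in cluster 5, 0.618% in cluster 6, 0.127% in cluster 14, 0.214% in cluster 16 and 0.418% in cluster 17. At an unadjusted p under 0.05, all of them higher, there were 7 members in cluster 1 (against 7.18% of all genes, in either direction), 5 in cluster 6 (8.45%), 3 in cluster 2 (8.87%), 2 in cluster 5 (7.7%), 2 in cluster 16 (8.97%) and 1 in cluster 17 (6.95%). Clusters 0 (9.6% of all genes) and 14 (6.2%) had 0 such members.

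Macrophage or monocyte-like cells showed larger but still uncalled differences. Ndrg1 had 112 and 110 CPM in Sema4d-shRNA libraries and 85.5 and 65.5 in NC libraries, with a log2 change of 0.63 (SE 0.13, adjusted p = 0.0988, edgeR). Bhlhe40 had 68.6 and 53.3 in Sema4d-shRNA libraries and 44.6 and 40.0 in NC libraries (log2 change 0.60, SE 0.14, adjusted p = 0.143). Ddit4 had 35.4 and 35.6 in Sema4d-shRNA libraries and 28.0 and 19.7 in NC libraries (log2 change 0.65, SE 0.16, adjusted p = 0.166). In these 3 genes both shRNA libraries lay above both NC libraries. Adm had 39.3 and 13.97 in Sema4d-shRNA libraries and 13.7 and 9.20 in NC libraries, with the first shRNA library apart from the other 3. Its log2 change was 1.30 (SE 0.76, adjusted p = 0.708, edgeR), and 0.33 without that library.

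In this class edgeR called 28 of 12467 genes, or 0.225% (0.0401% higher and 0.184% lower), and 0 of 10 members. DESeq2, which called more genes in all than edgeR here, called 1 member, Ndrg1 (adjusted p = 0.0273). At an unadjusted p under 0.05 there were 7 members, all higher, against 5.50% of all genes. The shRNA libraries lay above the NC libraries without overlap for 8 members, against 12.6% of all genes tested, and below them for 0, against 31.1%. All 10 log2 changes were above 0, with a median of 0.44, where the median of all genes was 0.00. Which member was called depended on the library set: without the second Sema4d-shRNA library 5 members were called, Adm, Ndrg1, Bnip3, Higd1a and Bhlhe40, and without any 1 of the other 3 libraries 0 were. Over all genes, 15 to 415 were then called, the most without the second Sema4d-shRNA library, and 131 without the first.

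The makeup of the class moved with these differences. The Mmp12 subset, in which most members were highest, was 22.1% and 15.4% of the class in Sema4d-shRNA libraries and 10.1% and 7.66% in NC libraries. C1q macrophages were 44.3% and 55.2% in Sema4d-shRNA libraries and 54.8% and 66.6% in NC libraries. With subsets given the same weight in every library, the median log2 ratio of the members' levels was 0.14, against 0.36 as counted. Of the 10, 8 were above 0, with Egln3 at 0.009 and Ak4 at 0.027. At these weights the groups did not overlap for Ddit4, Higd1a and Bhlhe40, and overlapped for the rest. Ndrg1 had 91.3 and 105 CPM in Sema4d-shRNA libraries and 93.4 and 81.7 in NC libraries. The share of all genes without overlap was not computed at these weights. The ratio of Adm was then 0.42 in place of 1.22, of Ndrg1 0.17 in place of 0.56 and of Slc2a1 -0.05 in place of 0.24. Ddit4 kept 0.31 of 0.57. Inside the subsets no member was called. The median of the members' log2 changes was 0.13 in the Mmp12 subset, where edgeR called 0.454% of genes, 0.26 in C1q macrophages (0.167% of genes) and -0.06 in monocytes (0.209% of genes). In cycling macrophages 0.212% of genes were called and in the unnamed subset 0%. At an unadjusted p under 0.05 there were 3 members in C1q macrophages (all higher, against 6.73% of all genes in either direction), 0 in the Mmp12 subset (7.6%) and 0 in monocytes (4.91%). Cycling macrophages had 2 (6.44% of all genes), with Higd1a at a log2 change of 0.33 and Slc2a1 at -0.59, and the unnamed subset had 1, Bhlhe40 (6.61%). The mitochondrial share of UMIs, lower in both Sema4d-shRNA libraries, moved with the groups too. The part of subset makeup in the members' differences was not tested, nor was that of the mitochondrial share in any class.

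**Figure D4:**
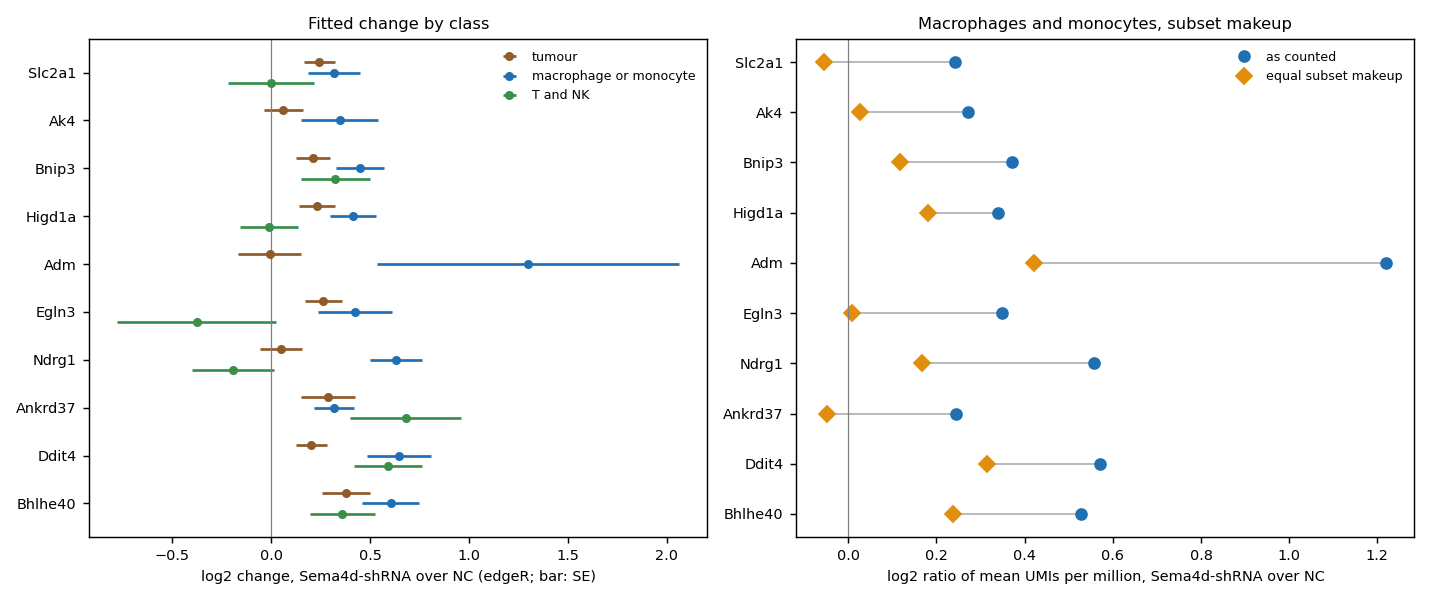
Left, fitted log2 change of each gene, Sema4d-shRNA over NC, with its standard error in 3 classes (n = 2 libraries a group; Adm and Ak4 had too few counts for the test in T and NK-like cells). Right, log2 ratio of mean levels in macrophage or monocyte-like cells as counted and at equal subset makeup; every diamond lies left of its circle, with Adm at 0.42 against 1.22.

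In T and NK-like cells 8 members had counts enough to be tested, and edgeR and DESeq2 each called 0 of them, against 28 of 8652 genes by edgeR (0.324%, with 0.185% higher and 0.139% lower). Ddit4 had 153 and 130 CPM in Sema4d-shRNA libraries and 104 and 83.1 in NC libraries (log2 change 0.59, SE 0.17, adjusted p = 0.268, edgeR). Ankrd37 had 30.8 and 33.7 in Sema4d-shRNA libraries and 19.9 and 21.5 in NC libraries. In these 2 and in Bnip3 and Bhlhe40, that is 4 members against 15.9% of all genes tested, both shRNA libraries were above both NC libraries, while 0 members and 18.1% of all genes lay below. At an unadjusted p under 0.05 there were 3, all higher, against 3.26% of all genes. A log2 change above 0 was found for 4 of the 8. Without the first NC library 1 member was called, Ddit4 (log2 change 0.79, adjusted p = 0.0401, edgeR), and 91 genes in all, against 116 without the second NC library. Free RNA was estimated at 10.4% and 18.5% of UMIs in Sema4d-shRNA libraries and 24.97% and 15.7% in NC libraries in this class.

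Whether the effect in the myeloid class differed from that in tumour-like cells was tested directly. Of 15022 genes, 3.07% differed and 0 of the 10 members did, with 3 at an unadjusted p under 0.05, against 13.7% of all genes. Ddit4 came closest, with a log2 change larger by 0.47 in macrophages (SE 0.14, adjusted p = 0.0727, edgeR). The full set of libraries gave 461 genes in all. Without the second Sema4d-shRNA library 3 members and 978 genes passed this test, without the first NC library 2 members and 477 genes, without the first Sema4d-shRNA library 1 member and 462 genes, and without the second NC library 0 members and 185 genes. For Slc2a1 and Ankrd37 the differences were 0.09 (SE 0.13) and 0.04 (SE 0.14).

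Other lists of the pathway were read in the same fits. Of 28 tested HIF targets outside the members, 0 were called and 9 had a log2 change above 0 in tumour-like cells (median -0.03), while in macrophage or monocyte-like cells 0 were called and 23 were above 0 (median 0.26). Ero1l in macrophages came to 0.56 (SE 0.12, adjusted p = 0.112, edgeR). Glycolytic targets had medians of 0.04 and 0.19 in these classes, with 0 of 10 called in each and 6 of 10 above 0 in tumour-like cells and 8 of 10 in macrophage or monocyte-like cells. Gapdh in tumour-like cells was at 0.23 (SE 0.10) and Ldha at 0.02 (SE 0.09), with Aldoa at 0.10 and Pkm at 0.09. The lowest values there, singled out after they were seen, were those of Eno1 (-0.36, SE 0.08, adjusted p = 0.121, edgeR) and Pgk1 (-0.26, SE 0.08, adjusted p = 0.267). Fam162a, Cited2 and P4ha1 were at -0.03, -0.02 and 0.10 in tumour-like cells and at 0.08, 0.04 and 0.12 in macrophage or monocyte-like cells. None of 7 tested HIF regulators was called in either class, and Hif1a was at 0.05 (SE 0.09) in tumour-like cells and 0.12 (SE 0.16) in macrophages, with Egln1, Arnt and Egln2 at 0.01, -0.17 and 0.02 in tumour-like cells. In the integrated stress response, Ppp1r15a, which returns translation initiation to normal after stress, rose in tumour-like cells (39.1 and 38.4 CPM in Sema4d-shRNA libraries, 29.2 and 28.3 in NC libraries, log2 change 0.48, SE 0.08, adjusted p = 0.0444, edgeR). It was 1 of 12 in its list, and the call was lost without the first NC library (adjusted p = 0.172) and without the second (0.2998). Atf4, the list's main transcription factor, was at 0.49 (SE 0.08, adjusted p = 0.0504). Among immediate early genes Fos, Jun, Junb and Klf2 rose in T and NK-like cells, 4 of 16, with log2 changes of 1.06 (adjusted p = 0.000198), 0.91, 0.77 and 0.77. Without the second Sema4d-shRNA library Junb (adjusted p = 0.158) and Klf2 (0.0604) were no longer called, and without the first Klf2 was not (0.0786). The part of these genes in the members' differences in this class was not tested. In tumour-like cells 13 of these 16 were above 0 and 0 were called. Of 12 G2 and M phase genes, 12 were above 0 in tumour-like cells and 2 in macrophages, with 0 called.

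Counted per cell, at least 3 of the 10 members were detected in 31.8% and 30.0% of tumour-like cells in Sema4d-shRNA libraries and in 25.4% and 26.3% in NC libraries, at 3000 UMIs a cell. The means were 30.9% ± 1.30 in Sema4d-shRNA libraries and 25.9% ± 0.677 in NC libraries (SD, n = 2 each). The difference was 5.05 percentage points, with an exact two-sided permutation p of 0.33, the smallest that 2 against 2 libraries can give. Without thinning, the shares were 71.7% and 66.3% in Sema4d-shRNA libraries and 66.8% and 59.6% in NC libraries, which overlap. In macrophage or monocyte-like cells the thinned shares were 31.4% and 30.4% in Sema4d-shRNA libraries and 24.7% and 20.03% in NC libraries (difference 8.55 points, exact permutation p = 0.33). Inside the Mmp12 subset they were 61.4% and 59.3% in Sema4d-shRNA libraries and 59.6% and 51.2% in NC libraries, and inside C1q macrophages 17.6% and 23.0% in Sema4d-shRNA libraries and 17.7% and 16.4% in NC libraries. Both subsets overlapped between the groups. T and NK-like cells had 23.3% and 19.9% in Sema4d-shRNA libraries and 22.05% and 17.5% in NC libraries. Median UMIs per cell were 2016 to 2140 in T and NK-like cells and 1945.5 to 2187.5 in monocytes. Thinning to 3000 UMIs thus left out most cells of both, and their shares describe only the deeper cells. Thinning left out 645 and 847 tumour-like cells of Sema4d-shRNA libraries and 424 and 566 of NC libraries, and 702 and 890 macrophage or monocyte-like cells of Sema4d-shRNA libraries and 1143 and 1496 of NC libraries.

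**Figure D5:**
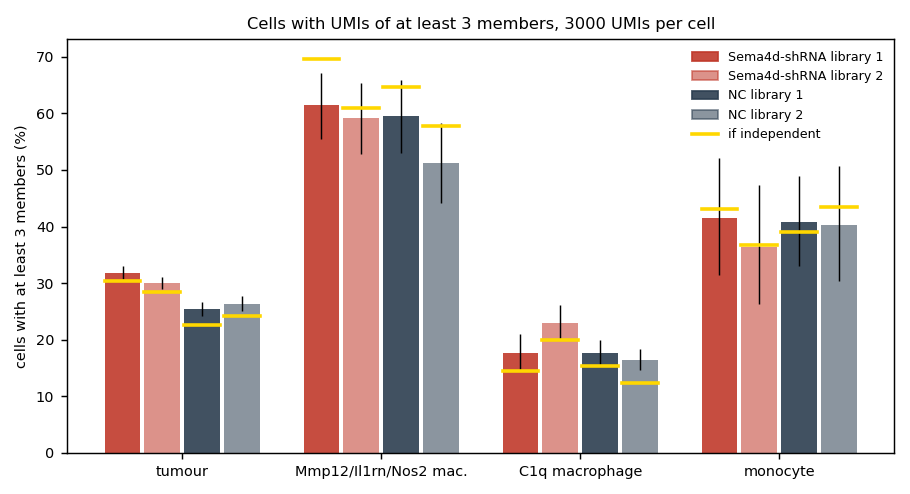
Share of cells with a UMI of at least 3 of the 10 genes at 3000 UMIs per cell, per library (bars, with exact 95% binomial intervals for counting error only); gold lines give the share expected if genes were independent within the subset and library. The Mmp12 subset reaches 51.2% to 61.4%, against 16.4% to 23.0% in C1q macrophages.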

How the data were processed

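The matrices hold UMI counts per gene and cell, deposited by the authors without normalization; per the file headers they were written by PISA 1.0. STAR 2.5.1b, GRCh38 and mm10 are named in the submitters' processing notes, with annotation and cell calling not given in the sources used here. The members and lists were chosen with earlier results of these data known.

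Cells needed 300 genes and at most 20% mitochondrial UMIs. Scrublet's highest 6% per library were left out as doublets; its own threshold marked 0 to 1.51%. Cells were clustered with scanpy 1.11.5 (2000 variable genes without the hypoxia genes, 30 components, Leiden resolution 1) and named from listed markers, with naming limits set after seeing the data. Counts summed per library and class were tested with edgeR 4.0.16 (quasi-likelihood, TMM, Benjamini-Hochberg over all genes), after a check on simulated counts. Alternatives were DESeq2 1.42.0, no filter on low counts, a replicate block, leaving out each library, resolution 2, keeping doublets and subtracting free RNA. Subset fits and equal makeup were added after seeing the data. For single-cell shares, cells were thinned to 3000 UMIs; intervals are exact binomial and cover counting error only. All members were named, with the called genes of each other list, or else its 4 highest in tumour-like cells, and the 10 genes most correlated with the members among those in at least 5% of cells. Class names rest on rebuilt clusters.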

Additional observations from a re-analysis of the deposited data

Results flagged for a closer look

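Ak4 differed in direction between macrophage subsets in its summed level. In C1q macrophages it had 12.1 and 10.7 CPM (UMIs of the gene per 1000000 UMIs of the subset) in Sema4d-shRNA libraries and 8.83 and 8.69 in NC libraries (log2 ratio of means 0.38), and in monocytes 10.3 and 9.66 in Sema4d-shRNA libraries and 15.1 and 17.2 in NC libraries (log2 ratio -0.70). The gap between the ratios was 1.07, every library of each subset moved its subset's way, and this difference was not tested. The CPM values of monocytes rest on 11 and 9 UMIs in Sema4d-shRNA libraries and 22 and 16 in NC libraries.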

How the results depend on the processing

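With 2 libraries a group, counts of calls moved strongly. The members called in tumour-like cells were 2 with no filter on low counts (and 0 with any 1 library left out), and those in macrophage or monocyte-like cells 1 with DESeq2, 4 with no filter and 0 to 5 when 1 library was left out. In T and NK-like cells 0 to 1 were called when 1 library was left out. The test of unequal effects in myeloid and tumour-like cells gave 0 to 3 members and 185 to 978 genes then, and 1 member with doublets kept. Over all genes, tumour-like cells gave 261 calls with DESeq2, 812 with no filter, 25 with free RNA subtracted and 26 to 344 with 1 library left out. Macrophage or monocyte-like cells gave 67 with DESeq2, 423 with no filter, 53 with doublets kept, 47 with free RNA subtracted and 15 to 415 with 1 library left out. T and NK-like cells gave 87 with no filter and 33 to 116 with 1 library left out. The labels give only a replicate number, and same-numbered libraries correlated at 0.0192 in tumour-like, 0.219 in macrophage or monocyte-like and -0.00246 in T and NK-like cells, so with 2 pairs the numbers were not taken as pairs. The replicate block called 4 members and 207 genes in macrophage or monocyte-like cells, 43 genes in T and NK-like cells and 94 in tumour-like cells. It gave Ppp1r15a in tumour-like cells an adjusted p of 0.0531, and subtracting free RNA gave 0.0714 (edgeR). With doublets kept, Junb and Klf2 in T and NK-like cells had adjusted p of 0.0884 and 0.174, while Fos and Jun were called under all 10 alternatives. Changes near 0 turned sign. In tumour-like cells Adm was at 0.0127 with no filter and 0.0093 at resolution 2. With 1 library left out, Adm ran from -0.2617 to 0.2078, Ak4 from -0.0331 to 0.1497 and Ndrg1 from -0.0987 to 0.2148. In T and NK-like cells Higd1a was at 0.0217 with no filter and 0.0284 with doublets kept, and Slc2a1 at 0.0302 with no filter, 0.0724 with doublets kept and 0.0928 with free RNA subtracted. With 1 library left out, Higd1a ran from -0.1798 to 0.1597 and Slc2a1 from -0.0465 to 0.0367. Co-detection in tumour-like cells was 1.40 at 1500 UMIs, against 1.33. The cause of these shifts was not tested. The members' levels moved by less than the spread between libraries with doublets kept. The difference in the share of cells with at least 3 members kept its direction but not its size. In tumour-like cells it was 2.42 points at 1500 UMIs, 5.81 without thinning, 2.54 with at least 4 members and 4.13 to 5.97 with 1 library left out, against 5.05. In macrophage or monocyte-like cells it was 4.35, 7.60, 4.64 and 6.24 to 10.9 under the same settings, against 8.55.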
